A study of Homo sapiens with 6 samples.

Results

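The genes described here are the extracellular matrix and integrin genes of the transcriptome of SH-SY5Y cells. They were chosen by their names, which had to be those of collagens, laminins, integrins, ADAM, ADAMTS or matrix metalloproteases, their TIMP inhibitors, fibronectin, fibrillins, fibulins, tenascin C, thrombospondins, SPARC proteins, syndecans, glypicans, other large proteoglycans, HAPLN link proteins or lysyl oxidases. Of the 4101 genes in the table, 34 had such a name, and antisense genes were left out. GENCODE release 29 holds 197 protein-coding genes with such names, and the others were not analysed here. Among the 34 were 6 collagens, 2 laminins, 3 matrix glycoproteins, 4 proteoglycans, 2 link proteins, 5 integrins, 1 ADAM protease, 6 ADAMTS proteases, 2 matrix metalloproteases, 1 metalloprotease inhibitor and 2 lysyl oxidases. They lay on 18 chromosomes.

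SH-SY5Y is a human neuroblastoma line of sympathetic origin, and the study took it as a model of dopaminergic cells. Sequenced RNA came from 3 libraries of the METH-treatment group (2 mM methamphetamine for 24 h) and 3 of the PBS-treatment group, which received only the buffer. All 6 libraries came from the WT genotype of the same cell line, without any other agent named, so no other genetic background was measured. The sample labels give the time of each library as Day 0, and the labels do not state that the replicates were separate cultures, so p-values measure the spread between these libraries. In bulk RNA, fewer cells of a type and less RNA per cell cannot be told apart.

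The extracellular matrix is the mesh of secreted collagens, laminins, glycoproteins and proteoglycans around cells. Integrins are pairs of an alpha and a beta chain that span the membrane, bind the matrix outside and recruit adaptor proteins to the actin cytoskeleton inside. Metalloproteases of the ADAM, ADAMTS and MMP families cut matrix and surface proteins, TIMPs inhibit them, and lysyl oxidases cross-link collagen and elastin. Around neurons, hyaluronan, link proteins and proteoglycans form a matrix that contains little fibrillar collagen.

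Each value was a read count divided by the total of its library (CPM), with denominators from 85.7 to 110.77 M reads per library, so 1 read was worth 0.00903 to 0.0117 CPM. METH was compared with PBS by limma on log2(CPM + 0.1) over all genes of the table, with an adjusted p (Benjamini-Hochberg) under 0.1 as the threshold. A log2 fold change is METH minus PBS on that scale, so it understates the change of genes near 0. Each gene of the table had an unadjusted p under 0.1 in the authors' own comparison. A large share of any set of its genes therefore passes here, and 69.1% of the whole table did. The adjustment covers only these selected genes, so an adjusted p under 0.1 does not hold the share of false calls to 0.1. The 3 values of a group are always given in the order PBS 10, 11 and 12 or METH 1, 2 and 3. The exact permutation test of a single gene with 3 against 3 libraries cannot go below p = 0.1, so only the adjusted p of the fit across all genes is given. For the 34 genes, adjusted p-values of other settings stand beside a gene where they ended its call or brought it past the threshold, and those of an adjustment over more genes and of a threshold of 0.05 are given together.

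Of the 34 matrix and integrin genes, 14 were up-regulated and 9 down-regulated in the METH-treatment group, and 11 did not pass the test. The 23 that passed made up 67.65%, against 69.1% of the whole table. The up-regulated genes were 41.18% of the 34, against 33.3% of the table, and the down-regulated genes 26.47%, against 35.8%. All 4 proteoglycan genes rose, whereas the collagens, integrins, ADAMTS proteases and lysyl oxidases each held genes that rose and genes that fell. The median log2 fold change was 0.46, against 0.11 over the table, and the median absolute log2 fold change was 0.80, against 0.73. The log2 fold change was positive in 21 genes, against 50.4% of the table, and negative in 13. The groups did not overlap in 20 genes (58.82%, against 64.0% of the table), 11 of them higher with METH (31.0% of the table) and 9 lower (33.0% of the table). No test was made of whether the 34 genes differ from the rest of the table. The authors' adjusted p-values imply 15724 genes, and with adjustment over that number 7 of the 34 rose and 2 fell. Over the table that adjustment gave 316 and 307.

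Of the 14 up-regulated genes, 10 (71.4%) averaged 1 CPM or more in the PBS-treatment group, against 84.7% of the up-regulated genes of the table, and the median gene mean was 13.6 CPM with PBS and 31.6 CPM with METH. Of the 9 down-regulated genes, 4 (44.4%) reached that mean, against 89.2% of the down-regulated genes of the table, and the median gene mean was 0.904 CPM with PBS and 0.334 CPM with METH. The log2 fold changes ranged from 0.62 to 2.36 among the up-regulated genes and from -2.43 to -0.63 among the down-regulated genes. In 9 of the 34 genes the mean was below 1 CPM in both groups.

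**Figure D1:**
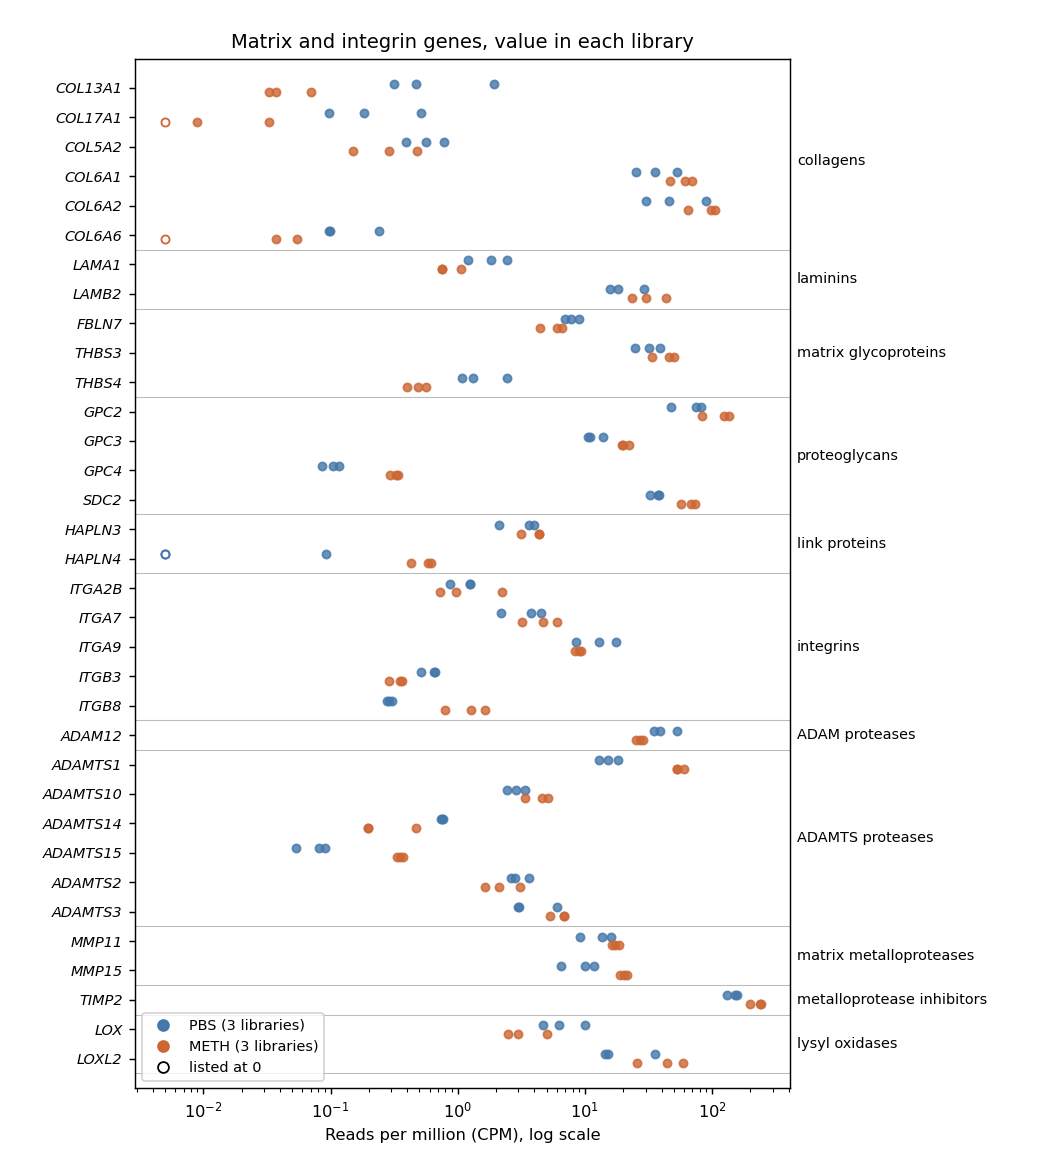
Value of each of the 34 genes in each library, in CPM on a log axis, with PBS libraries in blue, METH libraries in orange and open circles for values listed at 0. The points of ADAMTS1, GPC3, SDC2, MMP15, TIMP2 and ITGB8 fall into separate groups with METH to the right, and those of COL13A1, COL17A1 and THBS4 with METH to the left.

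**Figure D2:**
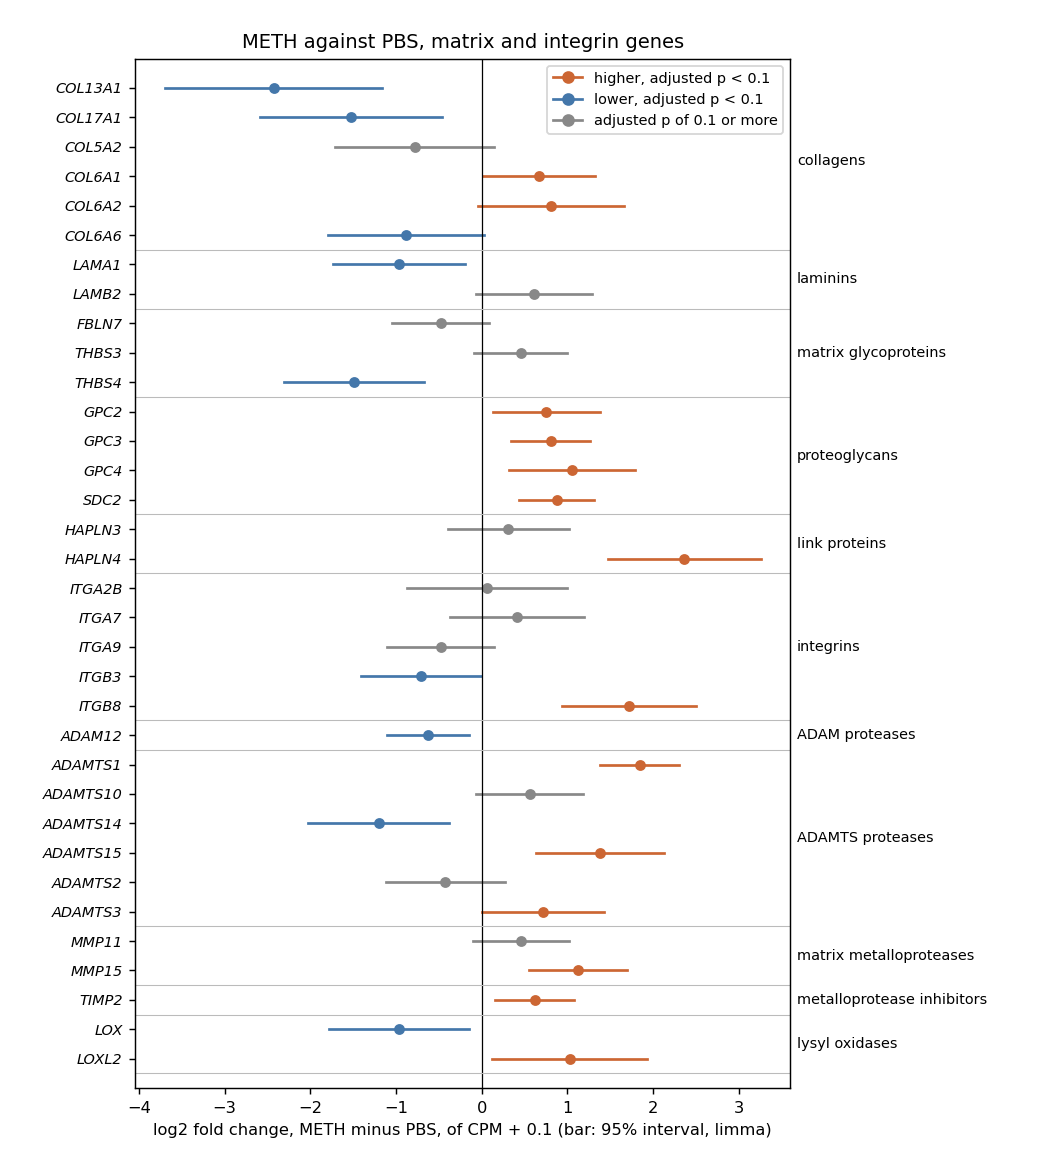
Log2 fold change of each gene, METH minus PBS, on log2(CPM + 0.1), where bars are 95% intervals from limma. Orange marks the 14 up-regulated genes, blue the 9 down-regulated genes and grey the 11 that did not pass, and HAPLN4 at 2.36 and COL13A1 at -2.43 are the ends of the range. Among the genes that passed, the bars of COL6A2 and COL6A6 cross the line of no change.

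The calls of 9 genes held in each of the alternatives that included the gene. These were the up-regulated ADAMTS1, ADAMTS15, GPC3, HAPLN4, ITGB8, MMP15 and SDC2, and the down-regulated COL13A1 and THBS4. They were also the 9 genes past the threshold when the adjustment covered 15724 genes, the number that the authors' adjusted p-values imply (26.47% of the 34, against 15.2% of the table). The other 14 calls were lost in that adjustment, with adjusted p-values by limma of 0.139 to 0.352. ADAMTS15, HAPLN4 and COL13A1 stayed below 1 CPM in both groups on average, and they dropped out of the fit limited to genes averaging 1 CPM or more in either group. The share of the whole table whose calls held in each alternative was not counted.

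Promoters are shown for the 3 of these 9 genes that had a RefSeq entry (GRCh38.p14) with at least 200 bases outside the annotated gene. Shown are the up-regulated HAPLN4 and both down-regulated genes, and the others lacked an entry or such a stretch. HAPLN4 was read from the minus strand at chr19:19262805-19263054, and the plus strand gave THBS4 at chr5:79991082-79991310 and COL13A1 at chr10:69801656-69801866. Each runs 5′ to 3′ toward the gene, and capitals mark matches of the motifs searched.
HAPLN4: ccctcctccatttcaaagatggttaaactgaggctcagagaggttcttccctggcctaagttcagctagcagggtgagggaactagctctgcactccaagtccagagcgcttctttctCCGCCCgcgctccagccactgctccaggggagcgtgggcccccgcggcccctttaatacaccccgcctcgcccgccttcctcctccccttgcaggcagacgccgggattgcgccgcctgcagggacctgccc
THBS4: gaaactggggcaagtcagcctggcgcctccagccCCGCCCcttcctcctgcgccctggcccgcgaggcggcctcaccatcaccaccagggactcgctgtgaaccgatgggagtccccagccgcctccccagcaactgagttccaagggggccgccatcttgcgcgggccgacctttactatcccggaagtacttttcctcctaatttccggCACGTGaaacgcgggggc
COL13A1: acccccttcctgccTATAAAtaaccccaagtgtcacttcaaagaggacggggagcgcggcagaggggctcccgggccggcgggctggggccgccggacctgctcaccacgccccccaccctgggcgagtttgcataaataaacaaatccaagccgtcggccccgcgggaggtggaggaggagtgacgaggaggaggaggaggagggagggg
The capitals in HAPLN4 are a GC box that starts 132 bases before the start site. Those in THBS4 are a GC box 216 bases and an E-box 39 bases before it, and those in COL13A1 a TATA box 236 bases before it. The start site is the RefSeq start, where the 250 bases searched end. The printed stretches of THBS4 (229 bases) and COL13A1 (211 bases) stop short of it, where the annotated gene begins.

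The motifs were searched on both strands in the 250 bases before each RefSeq start, and 22 of the 34 genes had an entry. The GC box (GGGCGG, or CCGCCC on the other strand) was in 18 of the 22 genes, or 81.8%, and in 42.6% of all 35116 starts. The TATA box (TATAAA) was in 5 genes, or 22.7%, against 10.7% of starts, and the E-box (CACGTG) in 1, or 4.55%, against 6.34%. The cAMP response element (TGACGTCA), which CREB binds, and the AP-1 site (TGANTCA) were in 0 of the 22, against 1.65% and 6.57% of starts. A gene can have several starts, so a share of genes and a share of starts are not the same measure. The starts also cover 27305 genes, most of them outside the table, and no share over the genes of the table was counted. Whether these shares are particular to matrix genes was not tested. The median GC content was 66.4% over the 27 starts of these genes and 58% over all starts. A match describes the letters of the window only.

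Collagens were the first group of structural genes. Of 6, 2 rose (COL6A1 and COL6A2), 3 fell (COL13A1, COL17A1 and COL6A6) and COL5A2 did not pass. COL6A1 (ENSG00000142156, chromosome 21, 45981737 to 46005050) and COL6A2 (ENSG00000142173, chromosome 21, 46098097 to 46132849) encode chains of collagen VI, which forms beaded filaments. They lie on the same strand, 93047 bases apart. COL6A1 was at 25.3, 53.1 and 35.8 CPM in the PBS libraries and 61.5, 69.1 and 46.2 CPM in the METH libraries. METH 3 lay below PBS 11, so the groups overlapped. The means went from 38.1 ± 14.04 to 58.9 ± 11.7 CPM (SD, n = 3 each; log2 fold change 0.67, standard error 0.290, limma adjusted p = 0.0784). The COL6A1 call was lost without PBS 10 (0.186), PBS 12 (0.159), METH 1 (0.178) or METH 2 (0.213), by limma without a variance trend (0.101) and on 5 libraries by edgeR (0.204), edgeR with TMM factors (0.156) and DESeq2 (0.203).

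COL6A2 had values of 30.1, 89.5 and 45.5 CPM in the PBS libraries and 97.5, 106 and 64.3 CPM in the METH libraries. PBS 11 and METH 3 overlapped here too, and PBS 10 was the lowest library of both collagen VI genes. The means were 55.1 ± 30.8 to 89.2 ± 22.0 CPM (SD, n = 3 each; log2 fold change 0.81, standard error 0.377, 95% interval -0.040 to 1.66, limma adjusted p = 0.0917). That call was lost without PBS 10 (0.243), PBS 12 (0.201), METH 1 (0.200) or METH 2 (0.220), by limma without a variance trend (0.114) and on 5 libraries by edgeR (0.299), edgeR with TMM factors (0.257) and DESeq2 (0.289). Per kilobase of annotated exon, the ratio of COL6A2 to COL6A1 was 1.18, 1.67 and 1.26 in the PBS libraries and 1.57, 1.52 and 1.38 in the METH libraries, so it overlapped between the groups.

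The 3 collagens that fell had means below 1 CPM in both groups. COL13A1 (ENSG00000197467, chromosome 10, 69801867 to 69964275), a transmembrane collagen of cell junctions, was at 0.316, 1.92 and 0.472 CPM in the PBS libraries and 0.07, 0.033 and 0.037 CPM in the METH libraries. All METH libraries were below all PBS libraries, and PBS 11 stood far above PBS 10 and PBS 12. The mean fell from 0.904 ± 0.886 to 0.0467 ± 0.0203 CPM (SD, n = 3 each; log2 fold change -2.43, standard error 0.563, limma adjusted p = 0.0195). With 1 or 0.01 CPM added in place of 0.1, the log2 fold change of COL13A1 was -0.77 or -3.63.

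COL17A1 (ENSG00000065618, chromosome 10, 104031286 to 104085957), a transmembrane collagen of hemidesmosomes, was at 0.515, 0.184 and 0.097 CPM in the PBS libraries and 0, 0.033 and 0.009 CPM in the METH libraries. No METH library held more than 3 reads of it. Against a floor of 3 reads in each METH library it was at least 8.28-fold lower with METH (adjusted p = 0.0381 by limma), a call that was lost without METH 1 (0.104) and on 5 libraries by DESeq2 (0.111). The bound rested mostly on PBS 10, and without that library it was 4.39-fold. COL6A6 (ENSG00000206384, chromosome 3, 130560334 to 130678155), another collagen VI chain, was at 0.099, 0.242 and 0.097 CPM in the PBS libraries and 0, 0.055 and 0.037 CPM in the METH libraries. It passed (log2 fold change -0.89, standard error 0.404, 95% interval -1.80 to 0.023, limma adjusted p = 0.0881). The COL6A6 call was lost without PBS 11 (0.207), PBS 12 (0.113), METH 1 (0.230), METH 2 (0.146) or METH 3 (0.122). It was also lost with 1 CPM added (0.199) and on 5 libraries by DESeq2 (0.177). With 1 CPM added the log2 fold change was -0.31 for COL17A1 and -0.15 for COL6A6, and with 0.01 CPM it was -3.46 and -2.20. COL5A2 (ENSG00000204262, chromosome 2, 189031896 to 189225312), a chain of the fibrillar collagen V, was at 0.56, 0.392 and 0.773 CPM in the PBS libraries and 0.479, 0.286 and 0.15 CPM in the METH libraries. Its groups overlapped (adjusted p = 0.118 by limma), and it passed without PBS 11 (0.0894) and without the variance trend (0.0955).

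Laminins are the cross-shaped trimers of basement membranes. LAMA1 (ENSG00000101680, chromosome 18, 6941744 to 7117814), which encodes the alpha chain of the embryonic laminin, was at 2.42, 1.20 and 1.84 CPM in the PBS libraries and 0.759, 0.748 and 1.07 CPM in the METH libraries. All METH libraries lay below all PBS libraries. It was down-regulated (log2 fold change -0.97, standard error 0.340, limma adjusted p = 0.0515), and the call was lost without PBS 10 (0.110), PBS 12 (0.113), METH 1 (0.134) or METH 2 (0.146) and on 5 libraries by edgeR (0.119), edgeR with TMM factors (0.132) and DESeq2 (0.122). With 1 CPM added the log2 fold change of LAMA1 was -0.58. LAMB2 (ENSG00000172037, chromosome 3, 49121114 to 49133118), the beta chain found at synapses and in kidney basement membrane, was at 15.8, 29.3 and 18.3 CPM in the PBS libraries and 29.9, 43.3 and 23.5 CPM in the METH libraries. Its log2 fold change was 0.61 and the groups overlapped (adjusted p = 0.102 by limma). LAMB2 passed without PBS 11 (0.0423), without METH 3 (0.0706) and after median-ratio scaling (0.0846).

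Of the 3 matrix glycoproteins, THBS4 fell and the other two did not pass. THBS4 (ENSG00000113296, chromosome 5, 79991311 to 80083287) encodes a pentameric thrombospondin, and its values were 1.32, 2.44 and 1.08 CPM in the PBS libraries and 0.397, 0.561 and 0.486 CPM in the METH libraries. All METH libraries were below all PBS libraries. The mean fell from 1.61 ± 0.726 to 0.481 ± 0.0821 CPM (SD, n = 3 each; log2 fold change -1.49, standard error 0.364, limma adjusted p = 0.0221), and with 1 CPM added the log2 fold change was -0.79. THBS3 (ENSG00000169231, chromosome 1, 155195588 to 155209051), another pentameric thrombospondin, was at 24.9, 38.6 and 31.7 CPM in the PBS libraries and 50.5, 46.2 and 33.7 CPM in the METH libraries, and METH 3 lay below PBS 11. Its log2 fold change was 0.46 (adjusted p = 0.119 by limma), and it passed without PBS 11 (0.0694) and without METH 3 (0.0794). FBLN7 (ENSG00000144152, chromosome 2, 112138385 to 112188216), a cell-adhesive fibulin, was at 6.91, 7.73 and 9.04 CPM in the PBS libraries and 6.64, 6.04 and 4.39 CPM in the METH libraries. The groups did not overlap, but the difference did not pass (log2 fold change -0.48, standard error 0.251, limma adjusted p = 0.117). FBLN7 passed after median-ratio scaling (0.0924) and, on 5 libraries, by edgeR with TMM factors (0.0836) and by DESeq2 (0.0980).

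Proteoglycans carry long sulfated sugar chains that bind growth factors. All 4 among the 34 genes are heparan sulfate proteoglycans of the cell surface, and all 4 rose without overlap between the groups. SDC2 (ENSG00000169439, chromosome 8, 96493351 to 96611780), a syndecan that spans the membrane, was at 38.1, 37.4 and 32.3 CPM in the PBS libraries and 68.4, 73.6 and 56.7 CPM in the METH libraries. The lowest METH library was above the highest PBS library by a wide margin. The mean rose from 35.9 ± 3.15 to 66.2 ± 8.71 CPM (SD, n = 3 each; log2 fold change 0.88, standard error 0.195, limma adjusted p = 0.0177).

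The glypicans are held on the membrane by a lipid anchor. GPC3 (ENSG00000147257, chromosome X, 133535745 to 133985895) was at 10.5, 13.8 and 11.02 CPM in the PBS libraries and 22.2, 20.04 and 19.5 CPM in the METH libraries. The groups were well apart. Its mean rose from 11.8 ± 1.74 to 20.6 ± 1.42 CPM (SD, n = 3 each; log2 fold change 0.81, standard error 0.205, limma adjusted p = 0.0236). GPC2 (ENSG00000213420, chromosome 7, 100169606 to 100177372), a glypican of developing neurons, was at 47.1, 82.0 and 74.2 CPM in the PBS libraries and 135, 123 and 83.4 CPM in the METH libraries. METH 3 was only just above PBS 11. On average it rose from 67.8 ± 18.3 to 114 ± 27.0 CPM (SD, n = 3 each; log2 fold change 0.76, standard error 0.277, limma adjusted p = 0.0564), and the call was lost without PBS 10 (0.110), METH 1 (0.164) or METH 2 (0.160) and on 5 libraries by edgeR (0.111).

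GPC4 (ENSG00000076716, chromosome X, 133300103 to 133415490) is the neighbour of GPC3 on chromosome X, 120255 bases away. It was at 0.117, 0.104 and 0.086 CPM in the PBS libraries and 0.292, 0.341 and 0.327 CPM in the METH libraries. Its level was low, but the groups did not overlap (log2 fold change 1.05, standard error 0.328, limma adjusted p = 0.0385). The call was lost without METH 2 (0.119), and the log2 fold change was 0.26 with 1 CPM added and 1.56 with 0.01. The summed level of the 4 proteoglycan genes was 95.8, 133 and 118 CPM in the PBS libraries and 226, 217 and 159.9 CPM in the METH libraries.

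Link proteins fix proteoglycans to hyaluronan. HAPLN4 (ENSG00000187664, chromosome 19, 19255641 to 19262796), a link protein of the perineuronal nets of the brain, was at 0, 0.092 and 0 CPM in the PBS libraries and 0.619, 0.429 and 0.589 CPM in the METH libraries. These values stand for 0, 8 and 0 reads with PBS and 53, 39 and 63 reads with METH. The mean rose from 0.0307 ± 0.0531 to 0.546 ± 0.102 CPM (SD, n = 3 each; log2 fold change 2.36, standard error 0.396, limma adjusted p = 0.00849). It was the largest rise among the 34 genes with 0.1 CPM added. AC138430.1 on the same strand and AC138430.2 on the other strand overlap HAPLN4, and their reads cannot be told apart from its own. The size of the change rested on the value added, being 0.58 with 1 CPM and 4.66 with 0.01 CPM. HAPLN3 (ENSG00000140511, chromosome 15, 88877288 to 88895626) was at 2.10, 3.65 and 3.99 CPM in the PBS libraries and 4.35, 4.36 and 3.15 CPM in the METH libraries. The groups overlapped, with METH 3 below PBS 11 and PBS 12 (log2 fold change 0.31, limma adjusted p = 0.357).

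Of the 5 integrin genes, ITGB8 rose, ITGB3 fell and ITGA2B, ITGA7 and ITGA9 did not pass. ITGB8 (ENSG00000105855, chromosome 7, 20330702 to 20415754) encodes a beta chain that pairs with the alpha V chain and releases active TGF-beta. It was at 0.307, 0.276 and 0.29 CPM in the PBS libraries and 1.65, 1.27 and 0.794 CPM in the METH libraries. The PBS libraries lay close together and the METH libraries spread from METH 3 up to METH 1, all above them. The mean rose from 0.291 ± 0.0155 to 1.24 ± 0.427 CPM (SD, n = 3 each; log2 fold change 1.72, standard error 0.346, limma adjusted p = 0.0130), and the log2 fold change was 0.77 with 1 CPM added. AC004130.1, a gene on the other strand that overlaps ITGB8, had means of 1.02 CPM with PBS and 3.16 CPM with METH (log2 fold change 1.59, limma adjusted p = 0.0142). Whether the counting used strand is not given in the sources used here, so reads of the overlapping genes cannot be told apart.

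ITGB3 (ENSG00000259207, chromosome 17, 47253846 to 47311816) encodes the beta chain shared by the platelet fibrinogen receptor and the vitronectin receptor. It was at 0.515, 0.645 and 0.666 CPM in the PBS libraries and 0.35, 0.286 and 0.365 CPM in the METH libraries. All METH libraries were below all PBS libraries (log2 fold change -0.71, standard error 0.313, limma adjusted p = 0.0834). The call was lost without PBS 11 (0.124), PBS 12 (0.151), METH 1 (0.170), METH 2 (0.212) or METH 3 (0.117) and on 5 libraries by edgeR (0.107), edgeR with TMM factors (0.108) and DESeq2 (0.157), and with 1 CPM added the log2 fold change was -0.27. ITGA2B (ENSG00000005961, chromosome 17, 44372180 to 44389505), the alpha chain that pairs with it in platelets, was at 1.25, 1.25 and 0.87 CPM in the PBS libraries and 0.724, 2.21 and 0.972 CPM in the METH libraries. METH 2 was the highest and METH 1 the lowest of the 6, and the log2 fold change was 0.07 (adjusted p = 0.879 by limma).

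ITGA7 (ENSG00000135424, chromosome 12, 55684568 to 55716043), a laminin-binding alpha chain, was at 2.19, 4.49 and 3.74 CPM in the PBS libraries and 4.65, 5.98 and 3.19 CPM in the METH libraries, with METH 3 below PBS 11 and PBS 12. The log2 fold change of ITGA7 was 0.41 (adjusted p = 0.278 by limma). ITGA9 (ENSG00000144668, chromosome 3, 37452115 to 37823514), which binds tenascin C, was at 17.4, 8.51 and 12.9 CPM in the PBS libraries and 8.42, 8.99 and 9.27 CPM in the METH libraries. PBS 11 lay among the METH libraries, and the log2 fold change of ITGA9 was -0.48 (adjusted p = 0.142 by limma). It passed without PBS 11 (0.0401). The summed level of the 5 integrin genes was 21.7, 15.2 and 18.4 CPM in the PBS libraries and 15.8, 18.7 and 14.6 CPM in the METH libraries, which overlapped.

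ADAMTS proteases are secreted enzymes with thrombospondin repeats. Of 6, 3 rose (ADAMTS1, ADAMTS15 and ADAMTS3), ADAMTS14 fell, and ADAMTS2 and ADAMTS10 did not pass. ADAMTS1 (ENSG00000154734, chromosome 21, 26835747 to 26845409), which cuts the proteoglycans aggrecan and versican, was at 18.2, 15.3 and 12.8 CPM in the PBS libraries and 59.6, 52.8 and 53.3 CPM in the METH libraries. The lowest METH library was far above the highest PBS library, and the spread within each group was small. The mean rose from 15.4 ± 2.70 to 55.2 ± 3.80 CPM (SD, n = 3 each; log2 fold change 1.84, standard error 0.204, limma adjusted p = 0.00187), the smallest adjusted p of the 34 genes. ADAMTS15 (ENSG00000166106, chromosome 11, 130448974 to 130476641), which cuts the same kind of proteoglycan, was at 0.09, 0.081 and 0.054 CPM in the PBS libraries and 0.35, 0.374 and 0.336 CPM in the METH libraries. It rose from a low level without overlap (log2 fold change 1.38, standard error 0.332, limma adjusted p = 0.0212), with a log2 fold change of 0.33 with 1 CPM added and 2.12 with 0.01.

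ADAMTS2, ADAMTS3 and ADAMTS14 encode the procollagen N-proteinases, which trim the ends of procollagen, and they had log2 fold changes of -0.43, 0.72 and -1.20. ADAMTS3 (ENSG00000156140, chromosome 4, 72280969 to 72569386) was at 5.99, 3.04 and 2.98 CPM in the PBS libraries and 5.29, 6.86 and 6.86 CPM in the METH libraries. PBS 10 lay above METH 1, so the groups overlapped (log2 fold change 0.72, standard error 0.316, limma adjusted p = 0.0834), and the call was lost without PBS 11 (0.164), PBS 12 (0.203), METH 1 (0.129), METH 2 (0.200) or METH 3 (0.151). ADAMTS14 (ENSG00000138316, chromosome 10, 70672803 to 70762441) was at 0.74, 0.749 and 0.762 CPM in the PBS libraries and 0.198, 0.473 and 0.196 CPM in the METH libraries. All METH libraries were lower (log2 fold change -1.20, standard error 0.365, limma adjusted p = 0.0363). The call was lost without METH 1 (0.111), and with 1 CPM added the log2 fold change was -0.45. ADAMTS14 lies 708528 bases from COL13A1 on chromosome 10.

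ADAMTS2 (ENSG00000087116, chromosome 5, 179110851 to 179345430) was at 2.80, 3.66 and 2.63 CPM in the PBS libraries and 2.12, 3.07 and 1.65 CPM in the METH libraries (adjusted p = 0.216 by limma), and the groups overlapped. ADAMTS10 (ENSG00000142303, chromosome 19, 8580242 to 8610735), which binds fibrillin microfibrils, was at 2.88, 3.41 and 2.43 CPM in the PBS libraries and 5.12, 4.57 and 3.37 CPM in the METH libraries. METH 3 lay just below PBS 11, and the log2 fold change was 0.56 (adjusted p = 0.102 by limma). ADAMTS10 passed without PBS 11 (0.0810), without METH 3 (0.0843), and at 0.0935 to 0.0990 without the variance trend, with the filter at 1 CPM and with 1 CPM added. ADAM12 (ENSG00000148848, chromosome 10, 126012381 to 126388455), a protease that sheds growth factors from the cell surface, was at 52.5, 34.9 and 39.2 CPM in the PBS libraries and 27.0, 25.3 and 28.3 CPM in the METH libraries. All METH libraries were below all PBS libraries. The mean fell from 42.2 ± 9.15 to 26.9 ± 1.50 CPM (SD, n = 3 each; log2 fold change -0.63, standard error 0.212, limma adjusted p = 0.0462), and the call was lost without METH 1 (0.121) or METH 2 (0.151).

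Among the matrix metalloproteases and their inhibitors, MMP15 and TIMP2 rose. MMP15 (ENSG00000102996, chromosome 16, 58025566 to 58046901), a membrane-type metalloprotease, was at 6.5, 11.8 and 10.0 CPM in the PBS libraries and 20.1, 21.3 and 19.0 CPM in the METH libraries. The METH libraries lay close together above all PBS libraries. Its mean increased from 9.45 ± 2.71 to 20.1 ± 1.14 CPM (SD, n = 3 each; log2 fold change 1.13, standard error 0.254, limma adjusted p = 0.0183). MMP11 (ENSG00000099953, chromosome 22, 23768226 to 23784316), a secreted metalloprotease that furin activates, was at 9.08, 13.6 and 16.0 CPM in the PBS libraries and 17.1, 18.5 and 16.2 CPM in the METH libraries. Its groups did not overlap, but METH 3 was only just above PBS 12 and the difference did not pass (log2 fold change 0.46, standard error 0.248, limma adjusted p = 0.126).

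TIMP2 (ENSG00000035862, chromosome 17, 78852977 to 78925387) encodes an inhibitor of metalloproteases that also takes part in the activation of MMP2 at the cell surface. It was at 130.1, 151 and 158 CPM in the PBS libraries and 240.2, 238 and 197 CPM in the METH libraries. The METH libraries were the 3 highest. It rose on average from 146 ± 14.6 to 225 ± 24.1 CPM (SD, n = 3 each; log2 fold change 0.62, standard error 0.204, limma adjusted p = 0.0440), and the call was lost without METH 1 (0.139) or METH 2 (0.156).

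The 2 lysyl oxidase genes moved in opposite directions. LOX (ENSG00000113083, chromosome 5, 122063195 to 122078360) was at 6.29, 9.96 and 4.64 CPM in the PBS libraries and 2.98, 5.07 and 2.48 CPM in the METH libraries. METH 2 lay above PBS 12 (log2 fold change -0.96, standard error 0.363, limma adjusted p = 0.0597), and the call was lost without PBS 11 (0.125), METH 1 (0.146) or METH 3 (0.124). LOXL2 (ENSG00000134013, chromosome 8, 23297189 to 23425328) was at 15.1, 35.7 and 14.3 CPM in the PBS libraries and 43.9, 58.5 and 25.6 CPM in the METH libraries. METH 3 lay below PBS 11 (log2 fold change 1.03, standard error 0.403, limma adjusted p = 0.0658), and this call was lost without PBS 10 (0.126), PBS 12 (0.181), METH 1 (0.147) or METH 2 (0.187) and on 5 libraries by edgeR (0.155), edgeR with TMM factors (0.129) and DESeq2 (0.113). AC090197.1, on the other strand within LOXL2, had means of 0.475 CPM with PBS and 1.41 CPM with METH (log2 fold change 1.42, limma adjusted p = 0.0225), and the reads of the pair cannot be told apart. Although each gene overlapped between the groups, their ratio within a library did not. Per kilobase of annotated exon, LOXL2 was 2.33, 3.48 and 3.00 times LOX in the PBS libraries and 14.3, 11.2 and 10.0 times LOX in the METH libraries. This ratio was chosen after the values of both genes were seen, and it was not tested. Ratios of other pairs were computed as well. Those of GPC3 to GPC4 and of ITGA7 to ITGB8 did not overlap between the groups either. Those of COL6A2 to COL6A1, LAMB2 to LAMA1 and GPC2 to GPC3 overlapped.

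The libraries of a group differed among themselves in a repeated way. METH 3 was the lowest METH library in 21 of the 34 genes (61.76%, against 52.28% of the table), and in 10 of the 14 up-regulated genes, against 65.67% of the up-regulated genes of the table. PBS 10 was the lowest PBS library in 16 of the 34 genes (47.06%, against 44.75%). These were also the libraries with the largest denominators, 106.99 and 110.77 M reads. COL6A1, COL6A2, LAMB2 and LOXL2, picked after their values were seen, shared an order in which PBS 11 was the highest PBS library and METH 3 the lowest METH library. The part of these differences in the results was not tested beyond leaving out each library.

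**Figure D3:**
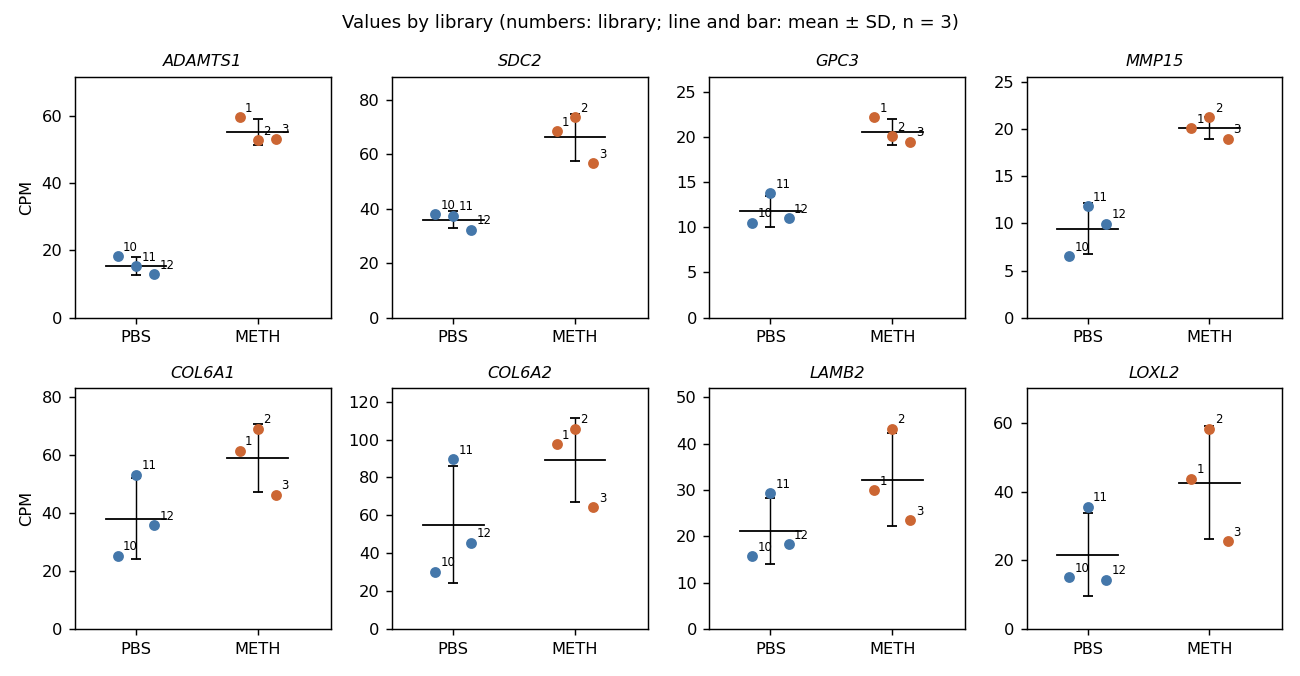
CPM of 8 genes in each library, with the library number beside each point and the mean ± SD of 3 libraries as a line and bar. In the upper row (ADAMTS1, SDC2, GPC3 and MMP15) the groups are apart, and in the lower row (COL6A1, COL6A2, LAMB2 and LOXL2) METH 3 falls below PBS 11.

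For the other 14 genes that passed, leaving out at least 1 library ended the call. Without METH 1 there were 8 up-regulated and 2 down-regulated genes, against 491 and 628 over the 4101 genes of the table. Without METH 2 there were 7 and 5, against 412 and 563 over the table. Without PBS 12 there were 10 and 6, against 747 and 854. The fit of all 6 libraries called 1366 and 1467 genes of the table. Only the 9 calls named above held in all 6 fits that left out a library, and the share of the table that did so was not counted.

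**Figure D4:**
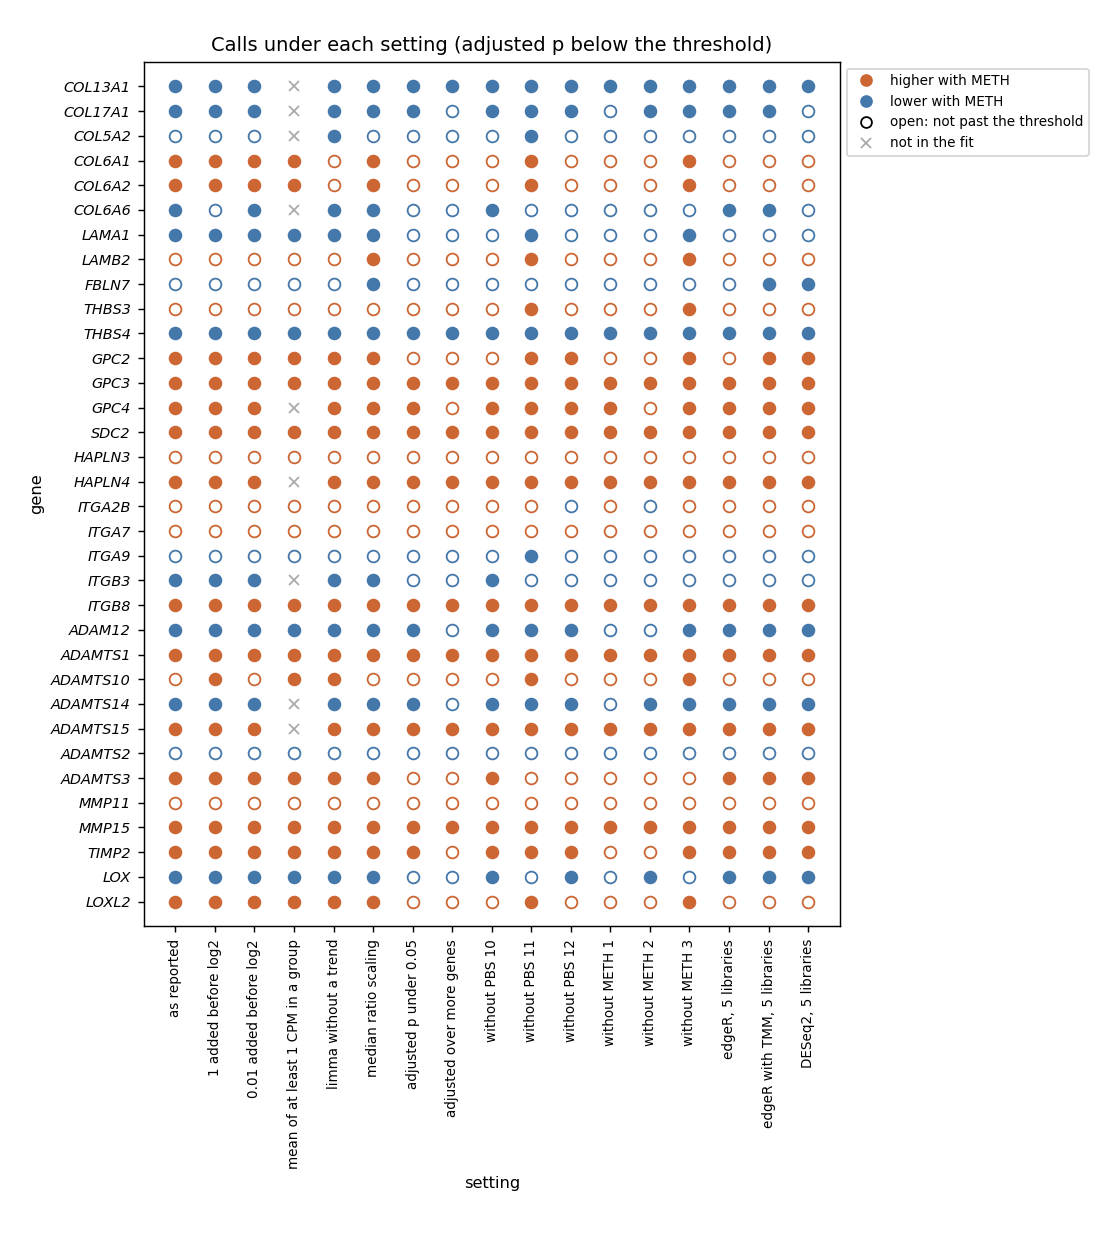
Each row is a gene and each column a setting of the analysis, with filled points past the threshold, open points not past it, orange for higher and blue for lower with METH, and crosses for genes not in the fit. ADAMTS1, GPC3, SDC2, ITGB8, MMP15 and THBS4 are filled in all columns, and COL6A1, COL6A2 and LOXL2 are open in the columns without PBS 10, PBS 12, METH 1 and METH 2.

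Levels can be compared between genes only per length of annotated exon. On that scale TIMP2 was the highest of the 34, at 26.0 CPM per kilobase with PBS and 39.9 with METH. GPC2 followed at 17.7 and 29.7, COL6A2 at 10.2 and 16.6, SDC2 at 7.92 and 14.6, and COL6A1 at 7.13 and 11.03. The order of these 5 genes was the same in both groups, and all 5 were among the up-regulated genes.

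Genes that act with the matrix and integrin genes were counted in the same fit, in which 33.3% of the table rose and 35.8% fell. The counts of these lists depended on single libraries and on the adjustment, so both are given beside them. Counts over the whole table moved as well, from 1366 higher and 1467 lower with all 6 libraries. They were 491 and 628 without METH 1, 412 and 563 without METH 2, and 1329 and 1144 without METH 3. Without PBS 10 they were 1015 and 1233, without PBS 11 1551 and 1368, and without PBS 12 747 and 854. Adjustment over 15724 genes gave 316 and 307. Of 9 focal adhesion adaptor genes in the table, which link integrins to actin, 6 fell, 0 rose and 3 did not pass (median log2 fold change -0.63). The 6 became 2 without METH 1, 3 without METH 2 and 1 with adjustment over 15724 genes, and 1 gene rose without PBS 11 or without METH 3. NEDD9, a docking protein, fell from 9.80 ± 1.80 to 2.85 ± 0.952 CPM (SD, n = 3 each; log2 fold change -1.77, standard error 0.292, limma adjusted p = 0.00833). FERMT1, a kindlin that activates integrins, fell from 0.839 ± 0.281 to 0.288 ± 0.114 CPM (log2 fold change -1.27, standard error 0.379, limma adjusted p = 0.0349, and 0.110 without METH 2). TLN2, a talin, fell from 11.4 ± 0.978 to 6.70 ± 1.02 CPM (log2 fold change -0.76, standard error 0.223, limma adjusted p = 0.0338, and 0.118 without METH 1).

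Of 12 genes that build glycosaminoglycan chains, 5 rose and 3 fell (median log2 fold change 0.47), against 33.3% and 35.8% of the table. Higher and lower counts were 2 and 1 without METH 1, 2 and 0 without METH 2, 3 and 1 without PBS 12, and 2 and 0 over 15724 genes. EXT1, a polymerase of heparan sulfate, rose from 12.7 ± 0.691 to 29.3 ± 6.03 CPM (log2 fold change 1.18, standard error 0.217, limma adjusted p = 0.0103). HS3ST2, a heparan sulfate sulfotransferase, rose from 17.9 ± 2.38 to 37.6 ± 9.44 CPM (log2 fold change 1.04, standard error 0.241, limma adjusted p = 0.0195). CHST7, a chondroitin sulfotransferase, had a log2 fold change of 1.15 (adjusted p = 0.0311 by limma, and 0.102 to 0.105 without METH 1 or METH 2). CHSY1, which builds chondroitin sulfate chains, fell (log2 fold change -0.83, standard error 0.269, limma adjusted p = 0.0425, and 0.111 to 0.139 without METH 1 or METH 2). CHST15, which sulfates them, fell as well (log2 fold change -0.94, standard error 0.297, limma adjusted p = 0.0395, and 0.103 to 0.130 without METH 2 or PBS 12), and so did HS6ST1, which sulfates heparan sulfate (log2 fold change -0.61, standard error 0.208, limma adjusted p = 0.0481, and 0.113 to 0.141 without METH 1, METH 2 or PBS 12). Of 4 genes of collagen processing, P3H1 and SEC24D rose and 0 fell. The 2 became 0 without METH 1 or METH 2 and over 15724 genes, 1 without METH 3 or PBS 12, and 4 without PBS 11. P3H1 is a prolyl hydroxylase of collagen (log2 fold change 0.68, standard error 0.218, limma adjusted p = 0.0413, and 0.131 to 0.150 without METH 1 or METH 2), and SEC24D is a coat protein for procollagen export (log2 fold change 0.50, standard error 0.188, limma adjusted p = 0.0609, and 0.120 to 0.177 without METH 1, METH 2, METH 3 or PBS 12).

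Of 13 other matrix and matrix receptor genes, 8 rose and 2 fell (median log2 fold change 0.70), against 33.3% and 35.8% of the table. The 8 became 4 without METH 1 or METH 2, 5 without PBS 12 and 3 over 15724 genes. The 2 became 0 without METH 1 and over 15724 genes, and 1 without METH 2, METH 3 or PBS 12. SPOCK3, a secreted testican, rose from 0.505 ± 0.280 to 1.82 ± 0.486 CPM (log2 fold change 1.73, standard error 0.396, limma adjusted p = 0.0190). LUM, the small proteoglycan lumican, rose from 6.43 ± 2.57 to 15.4 ± 1.35 CPM (log2 fold change 1.31, standard error 0.293, limma adjusted p = 0.0178), and SPOCK2 from 29.9 ± 8.85 to 66.0 ± 20.3 CPM (log2 fold change 1.13, standard error 0.306, limma adjusted p = 0.0277). RELN, the neuronal glycoprotein reelin, fell from 3.61 ± 0.375 to 1.82 ± 0.328 CPM (log2 fold change -0.96, standard error 0.269, limma adjusted p = 0.0302, and 0.105 without METH 1). EMILIN3 had a log2 fold change of -0.69 (adjusted p = 0.0976 by limma, and 0.101 to 0.219 without METH 1, METH 2, METH 3, PBS 10 or PBS 12).

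Of 6 other proteases and inhibitors, 3 rose and 2 fell, where 69.1% of the table passed in either direction. The 3 became 1 without METH 1 or METH 2 and over 15724 genes. The 2 became 1 without any 1 of METH 1, METH 2, METH 3, PBS 11 and PBS 12, and 0 over 15724 genes. SERPINI1, the neuronal inhibitor of tissue plasminogen activator, rose from 3.42 ± 0.783 to 9.90 ± 1.39 CPM (log2 fold change 1.52, standard error 0.263, limma adjusted p = 0.00897), and PLAT, which encodes that activator, had a log2 fold change of -0.67 (adjusted p = 0.0617 by limma, and 0.114 to 0.135 without METH 1, METH 2, METH 3, PBS 11 or PBS 12). PCSK6, a proprotein convertase, fell from 16.1 ± 3.71 to 8.60 ± 1.16 CPM (log2 fold change -0.88, standard error 0.243, limma adjusted p = 0.0291). FURIN, another convertase, rose (log2 fold change 0.78, standard error 0.252, limma adjusted p = 0.0420, and 0.122 to 0.130 without METH 1 or METH 2), as did the lysosomal protease CTSL (log2 fold change 0.54, standard error 0.227, limma adjusted p = 0.0740, and 0.131 to 0.193 without METH 1, METH 2, PBS 10 or PBS 12). Of 7 TGF-beta pathway genes, TGIF1 rose, SMAD3, SMAD6 and TGIF2 fell and 3 did not pass. The count that rose was 0 without METH 1, METH 2 or PBS 10 and 2 without METH 3. The count that fell was 0 without METH 1, METH 2 or PBS 12 and 1 without METH 3 or PBS 10, and both counts were 0 over 15724 genes. TGIF1 (log2 fold change 0.96, standard error 0.349, limma adjusted p = 0.0550, and 0.105 to 0.163 without METH 1, METH 2 or PBS 10) and TGIF2 (log2 fold change -0.61, standard error 0.254, limma adjusted p = 0.0745, and 0.106 to 0.189 without METH 1, METH 2, METH 3 or PBS 12) repress the pathway. The groups of SMAD3 and SMAD6 overlapped (adjusted p = 0.0914 and 0.0868 by limma), and these adjusted p-values were 0.151 to 0.210 without METH 1, METH 2, METH 3, PBS 10 or PBS 12 for SMAD3 and 0.157 to 0.236 without METH 1, METH 2, PBS 10 or PBS 12 for SMAD6.

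Markers of the 2 cell states of neuroblastoma were read beside the matrix genes, since mesenchymal-type cells are known for matrix expression. The adrenergic markers GATA2 (441 ± 57.1 to 270.2 ± 8.38 CPM) and CHGB (243 ± 23.2 to 459 ± 48.1 CPM) were well expressed in both groups, and they are markers of the labelled cell type. Of 14 adrenergic markers 5 were in the table, of which 4 fell and 1 rose, against 35.8% and 33.3% of the table. The 4 became 1 without METH 1 or METH 2 and over 15724 genes. Their summed level was 751 to 863 CPM in the PBS libraries and 727 to 832 CPM in the METH libraries. HAND1, a transcription factor of sympathetic neurons, fell from 63.8 ± 17.5 to 25.5 ± 4.19 CPM (log2 fold change -1.30, standard error 0.246, limma adjusted p = 0.0108), as did GATA2 (log2 fold change -0.70, standard error 0.215, limma adjusted p = 0.0371, and 0.119 to 0.122 without METH 1 or METH 2). CHGB, a granule protein, rose (log2 fold change 0.92, standard error 0.216, limma adjusted p = 0.0205). Of 27 mesenchymal markers 11 were in the table, of which 9 rose and 0 fell (median log2 fold change 0.97), against 33.3% and 35.8% of the table. The 9 became 5 without METH 1 and over 15724 genes and 7 without METH 2 or PBS 12, and 1 fell without PBS 11. Their summed level was 497 to 780.2 CPM in the PBS libraries and 865 to 1240.3 CPM in the METH libraries. VIM and TWIST1 were the largest parts of that sum. VIM rose from 372 ± 105 to 681 ± 136 CPM (log2 fold change 0.89, standard error 0.292, limma adjusted p = 0.0430, and 0.121 to 0.148 without METH 1 or METH 2). TWIST1 was at 251 ± 55.8 and 332 ± 71.0 CPM, and its groups overlapped (adjusted p = 0.182 by limma). No marker of either list in the table was at 0 in any library. The AP-1 factor FOSL2 rose from 4.28 ± 2.00 to 33.3 ± 18.2 CPM (log2 fold change 2.87, standard error 0.455, limma adjusted p = 0.00766) and SIX4 from 1.17 ± 0.386 to 3.08 ± 0.811 CPM (log2 fold change 1.35, standard error 0.342, limma adjusted p = 0.0237). LUM and DCN are in this list and in that of other matrix genes. The part of these markers in the changes of the matrix genes was not tested.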

How the data were processed

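RNA sequencing was measured in 6 libraries, 3 with METH and 3 with PBS. For 4101 genes the authors deposited a value per library, the mean of each group, their ratio and log2 fold change, and the p-value and adjusted p-value of their comparison, none of which was used as a result. The deposited columns are headed FPKM, but each value was a whole multiple of 1 read's worth within 0.00051, so they are CPM values without correction for length. The aligner, counting tool and genome build are not given in the sources used here. RNA kits differ between the labels and the methods of the study. The table holds only genes with an unadjusted p under 0.1. The study itself gives an adjusted p under 0.1 for its up-regulated and down-regulated genes.

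The 34 genes were taken by name, and the members and lists were chosen with earlier results of these data known. The named genes were COL6A1, ITGA7, HAPLN4 and, in each role, those past the threshold without overlap and with a mean of at least 1 CPM. Others were named where a count was 5 or fewer, and in related lists, which come from general knowledge, at most 3 in each direction. VIM and TWIST1 were named as the largest parts of a summed level. Some genes of these lists are counted but not reported here by name. limma 3.58.1 in R 4.3.3 (lmFit, then eBayes with the trend option) was fitted to log2(CPM + 0.1) of all genes, with a threshold of 0.1. It was also run on simulated counts. These did not copy the selection of the table's genes by p, so that run does not bear on the calls here. Alternatives were 1 or 0.01 CPM added, a filter at 1 CPM, no variance trend, median-ratio scaling, a threshold of 0.05, adjustment over 15724 genes, and each library left out. edgeR 4.0.16 and DESeq2 1.42.0 were run on the recovered read counts of 5 libraries, chosen after seeing the data. The smallest value of PBS 10 was 0.018 CPM, 2 steps of 0.00903, so the worth of 1 read was not seen directly there. Its denominator rests on the fit of the steps, and it was left out of both tools. Locations are from GENCODE release 29 (GRCh38), which holds 4093 of the 4101 identifiers, and promoters from RefSeq. Of the 34 genes, 18 overlapped another annotated gene, 10 of them on the same strand. No 2 libraries were identical.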

Additional observations from a re-analysis of the deposited data

How the results depend on the processing

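The count of up-regulated genes was 14 and that of down-regulated genes 9. With a threshold of 0.05 they were 9 and 5, against 696 and 783 over the 4101 genes of the table. With adjustment over 15724 genes they were 7 and 2, against 316 and 307 over the table. With a filter at 1 CPM the down-regulated genes were 4, since 9 of the 34 genes left the fit. That fit held 3763 genes of the table, of which 1306 were lower. Leaving out 1 library gave 7 to 16 up-regulated and 2 to 8 down-regulated genes. Over the table it gave 412 to 1551 and 563 to 1368. The other alternatives kept both counts within 1.5 times, at 10 to 15 up-regulated and 6 to 10 down-regulated. Of 535 values of single genes over 16 alternatives, 429 kept direction and side of the threshold, 88 no longer passed, 16 came to pass and 2 reversed. Both reversals were of ITGA2B, whose log2 fold change was -0.09 without PBS 12 and -0.37 without METH 2, and which ranged up to 0.38 without METH 1. The median log2 fold change of the table was 0.08 after median-ratio scaling. No paired analysis was possible because the columns of the PBS libraries carry the numbers 10 to 12, which are not those of the labels. edgeR and DESeq2 were run on 5 libraries, without PBS 10, as alternatives chosen after seeing the data, and were not run on all 6. Over the table edgeR called 975 genes higher and 1220 lower, edgeR with TMM factors 1008 and 1268, and DESeq2 1082 and 1251, against 1366 and 1467 by limma on 6 libraries. The depth limits genes near 0, since 3 reads are 0.0320 CPM on average in the METH libraries.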
